A study of Homo sapiens with 20 samples.

Results

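The mitosis genes described here are 46 protein-coding genes whose products run entry into mitosis, build the spindle, check chromosome attachment or split the cell, chosen by name and looked up in the joint table of 60483 genes. All 46 were found and all 46 passed the filter on low values (FPKM of at least 1 in at least 2 of the 20 libraries), several of the low ones through only some of the cell models. RNA sequencing measured 5 multiple myeloma cell models, each exposed to indirubin-3'-monoxime (I3MO) or to the solvent DMSO, with 2 libraries in each of the 10 groups. I3MO derives from indirubin and is known as an inhibitor of cyclin-dependent kinases and of glycogen synthase kinase. The groups were ANBL6 with I3MO at 5 µM and with DMSO, bortezomib-resistant ANBL6 (called ANBL6BR) with I3MO at 5 µM and with DMSO, and ARP1, RPMI8226 and U266, each with I3MO at 10 µM and with DMSO. The labels call ANBL6, ARP1, RPMI8226 and U266 wild type, and bortezomib is a proteasome inhibitor used against myeloma. The sources used here give no length of exposure and do not say whether the 2 libraries of a group came from separate cultures, so p-values measure only the spread between these libraries, which may be technical.

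Entry into mitosis is driven by CDK1 bound to cyclin B, and exit by the anaphase-promoting complex, which marks cyclin B and securin for destruction once the spindle checkpoint is satisfied. Most of the genes involved are transcribed late in the cell cycle, from promoters read by MYBL2 with the MuvB complex and then by FOXM1. Myeloma arises from plasma cells, and high expression of proliferation genes marks its aggressive forms. In bulk RNA, fewer cells in mitosis and less of these RNAs per cell cannot be told apart.

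The libraries held 12.09 to 20.28 M (mega) fragments, as recovered from the steps between FPKM values, and the replicate pairs correlated at r = 0.962 to 0.989 over log2(FPKM + 1) of the tested genes. Of 10 plasma cell markers, 7 or 8 stood at 1 FPKM or more in both libraries of every group. Among these were SDC1 at 28.8 to 269 FPKM and IRF4 at 15.8 to 265 FPKM. XBP1 was listed at 0 in all libraries, CD27 reached at most 0.116 FPKM and SLAMF7 ran from 0.0028 to 6.45 FPKM. Of 22 markers of other blood and stromal cells, 0 to 3 reached 1 FPKM in both libraries of a group. PECAM1 had the highest value of the 22 in any library, above HBB at up to 5.7 FPKM and COL1A1 at up to 4.18 FPKM. The ANBL6 libraries with I3MO had 32668 and 28419 genes above 0, against 22138 and 22710 in the ANBL6 libraries with DMSO. The label that ANBL6BR is a form of ANBL6 was set beside the data: with DMSO the model means of ANBL6BR and ANBL6 correlated at r = 0.815 across genes, against 0.831 for ANBL6 and RPMI8226 and 0.839 for ARP1 and RPMI8226. The light-chain genes have near-identical relatives and are uncertain for that reason. IGLC2, a constant gene, had 2.99 and 1.96 FPKM in ANBL6BR with DMSO, against 3680 and 3180 FPKM in ANBL6 with DMSO. IGLV2-14, a variable gene, had 20800 and 15300 FPKM in ANBL6BR with DMSO, against 144 and 120 FPKM in ANBL6 with DMSO. These light-chain genes were picked after their values were seen, and a common origin of ANBL6BR and ANBL6 was not tested. ANBL6BR results below are results of the libraries labelled so.

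With DMSO, the mitosis genes stood at different levels in the 5 models, as did most tested genes. The joint limma test of equal DMSO levels was past an adjusted p of 0.05 for 46 of 46 mitosis genes, where 90% of all 15687 tested genes were past it. In FPKM as deposited, U266 had the lowest mean of the 5 models for 32 of the 46 genes and the highest for 0, and RPMI8226 had the lowest for 11. ANBL6BR had the highest mean for 20, ARP1 for 12, ANBL6 for 11 and RPMI8226 for 3. The ratio of the highest to the lowest model mean ran from 1.89 for CDK1 to 481 for UBE2C, with a median of 4.93. MYBL2, which encodes the transcription factor B-MYB, went against the general order: its DMSO libraries in U266 (128 and 132 FPKM) were second to those in ANBL6BR (175 and 145 FPKM), and RPMI8226 was lowest at 83.0 and 83.4 FPKM, with no overlap between neighbouring models as deposited. Scaling by median ratios divides by 0.82 and 0.81 in RPMI8226 with DMSO, and by 1.08 and 1.09 in ANBL6 with DMSO. That would place ANBL6 below RPMI8226 for MYBL2, so the order of models depends on the scaling. CDK1 was closer together, at 8.05 and 8.08 FPKM in ANBL6BR, 7.05 and 6.23 FPKM in ANBL6, 4.86 and 7.05 FPKM in ARP1, 5.09 and 5.73 FPKM in U266 and 4.26 and 4.29 FPKM in RPMI8226. The ranges of ANBL6 and ARP1, and of ARP1 and U266, overlapped for CDK1. FPKM here seem to divide by the summed exons of all transcripts of a gene. That length gave whole fragment counts for 704 of 868 genes checked (81.1%), and the merged exon length did for 2. The lengths come from an annotation that may differ from the authors'. For these 46 genes the summed length was 1 to 7.23 times the merged length, so levels are compared between libraries and not between genes.

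As deposited, I3MO lowered mitosis genes in each of the 5 models, most widely in U266, and in ARP1 it also raised as many. The falls in ANBL6 and most of the rises in ARP1 did not hold under every other way of processing, as given below. A gene was called when limma's adjusted p for the difference of log2(FPKM + 1), I3MO minus DMSO, was under 0.05 over all tested genes. Each gene had 1 spread pooled over all 10 groups, so its standard error is the same in each model. In U266, 37 of 46 mitosis genes fell and 0 rose, where 26.2% of all tested genes were called (10.5% higher, 15.8% lower). All 46 differences were below 0 in U266, 17 of them at -1 or less, and the median was -0.81, against -0.02 over all tested genes. In RPMI8226, 18 fell and 0 rose, where 14.8% of all tested genes were called (6.19% higher, 8.62% lower), and again all 46 differences were below 0, with a median of -0.41 against -0.01 over all tested genes. In ANBL6BR, 13 fell and 0 rose, where 18.4% of all tested genes were called (10% higher, 8.4% lower), and the median was -0.29 against 0 over all tested genes. In ANBL6, 6 fell and 0 rose, where 7.97% of all tested genes were called (4.1% higher, 3.87% lower), and the median was -0.23 against 0.01 over all tested genes. The counts of 0 higher came with 0 genes higher at an unadjusted p under 0.05 in U266, RPMI8226 and ANBL6 and 1 in ANBL6BR, and 18 genes were lower at that p in ANBL6. In ARP1, 16 rose and 16 fell, where 37% of all tested genes were called (23.1% higher, 13.9% lower), and the median was 0.16 against 0.03 over all tested genes. With libraries scaled by median ratios, 4 rose and 19 fell in ARP1 and the median was -0.07, so the rises there depend on the scaling. The counts by role group below come from few genes each and are to be read against these shares of all tested genes.

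**Figure D1:**
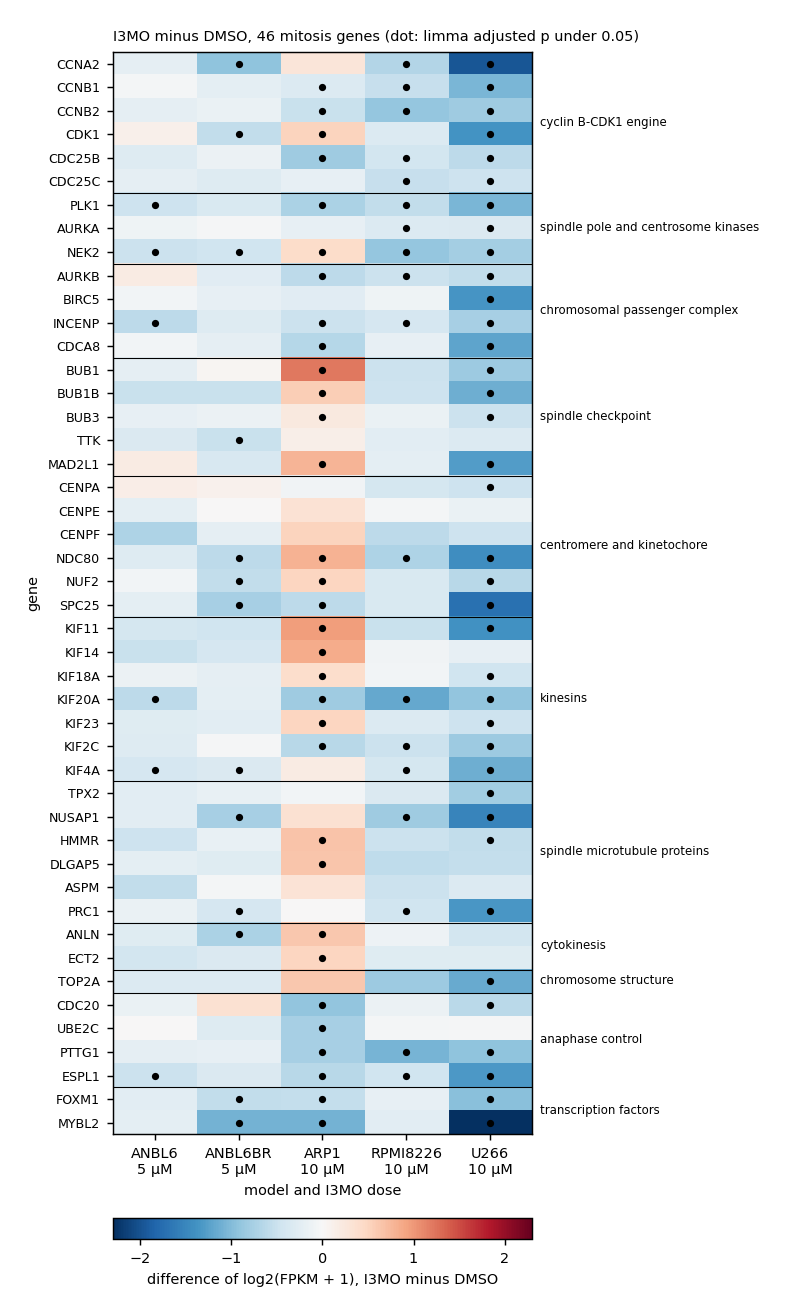
Difference of log2(FPKM + 1), I3MO minus DMSO, for each of the 46 mitosis genes (rows, in role groups) in each cell model with its I3MO dose in µM (columns), where blue is lower with I3MO, red is higher with I3MO and a dot marks a limma adjusted p under 0.05. The U266 column is blue throughout with 37 dots, and the ARP1 column holds 16 red and 16 blue dots.

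The same genes were not called everywhere. ESPL1, INCENP, KIF20A, KIF4A, NEK2 and PLK1 fell in 4 of the 5 models, 13 genes fell in 3, 6 fell in 2 and 15 fell in 1. For each of those 6 genes ANBL6 is among the 4 models, and 0 of the 6 calls in ANBL6 held under all 9 alternatives run there. In the other models the calls that held under all 9 were 28 of 37 in U266, 16 of 32 in ARP1, 9 of 18 in RPMI8226 and 5 of 13 in ANBL6BR. CENPE, CENPF, ECT2, KIF14, ASPM and DLGAP5 were called lower in 0 models, which does not show that they were unchanged. In U266 they stood near or below 1 FPKM, where log2(FPKM + 1) understates changes. DLGAP5, for example, had 0.392 and 0.262 FPKM with I3MO, against 0.874 and 0.969 FPKM with DMSO in U266. The summed FPKM of the 46 genes, which is dominated by the genes with high values, were 108 and 107 in U266 with I3MO, against 323 and 329 with DMSO. The sums were 367 and 374 in RPMI8226 with I3MO, against 499 and 507 with DMSO. In ANBL6BR they were 621 and 602 with I3MO, against 853 and 765 with DMSO. In each of these models both I3MO sums lay below both DMSO sums. In ARP1 the sums were 596 and 581 with I3MO, against 699 and 755 with DMSO, so the sum was lower although as many genes rose as fell. In ANBL6 they were 618 and 548 with I3MO, against 698 and 694 with DMSO.

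The promoters of the mitosis genes were read because cell cycle homology region (CHR) elements with CCAAT boxes are the known mark of genes bound by MuvB with MYBL2 and by NF-Y. Of the 46 genes, 39 had a promoter window in RefSeq (GRCh38.p14), and AURKA, BIRC5, BUB3, FOXM1, TPX2, TTK and UBE2C had none here. In the 250 bases before the start, on either strand, a CHR element, taken as TTTGAA (which reads TTCAAA on the other strand) or as the variant form TTCGAA, stood in 23 of 39 genes (59.0%), where 15.6% of 15842 protein-coding genes had one. A CCAAT box (CCAAT or ATTGG) stood in 32 of 39 (82.1%), where 40.2% of the protein-coding genes had one. Both stood in 21 of 39 (53.8%), where 6.0% of the protein-coding genes had both. The CHR element nearest the start lay within 40 bases of it in 16 of the 23 genes. A gene with several windows counted if any of them matched, and a match is a description of letters, not a bound site. The windows of MYBL2, the gene with the largest fall in U266, held neither element. The last 110 bases before the start are shown for 4 genes given below library by library, picked after the positions were seen because the elements stand close to the start, with CHR elements and CCAAT boxes in capitals, plus strand, from RefSeq on GRCh38.p14 at chr16:23678779-23678888 (PLK1), chr15:59105036-59105145 (CCNB2), chr12:53268189-53268298 (ESPL1) and chr11:62123901-62124010 (INCENP).
PLK1: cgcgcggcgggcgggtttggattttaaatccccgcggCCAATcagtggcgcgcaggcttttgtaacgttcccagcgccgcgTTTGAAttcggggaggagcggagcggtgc
CCNB2: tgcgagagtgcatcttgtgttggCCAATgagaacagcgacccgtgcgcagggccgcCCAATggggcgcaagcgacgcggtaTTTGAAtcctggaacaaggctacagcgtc
ESPL1: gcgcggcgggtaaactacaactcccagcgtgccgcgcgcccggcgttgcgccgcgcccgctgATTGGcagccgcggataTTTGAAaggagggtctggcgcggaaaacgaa
INCENP: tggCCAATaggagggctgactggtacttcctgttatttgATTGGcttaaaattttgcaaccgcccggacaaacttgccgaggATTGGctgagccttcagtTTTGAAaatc

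The transcription factors of the late cell cycle were both lower with I3MO in all libraries of all 5 models. MYBL2, which acts with the MuvB complex, had 25.5 and 25.4 FPKM with I3MO, against 128 and 132 FPKM with DMSO in U266. In ANBL6BR, MYBL2 had 75.1 and 74.9 FPKM with I3MO, against 175 and 145 FPKM with DMSO, and in ARP1 it had 49.3 and 52.3 FPKM with I3MO, against 111 and 106 FPKM with DMSO. The ANBL6 values were 81.2 and 86 FPKM with I3MO, against 95.9 and 101 FPKM with DMSO, and in RPMI8226 69.5 and 70.6 FPKM with I3MO, against 83 and 83.4 FPKM with DMSO. No I3MO library reached a DMSO library of its model, and the gap was widest in U266. The log2 difference of MYBL2 (± standard error) was -2.3 ± 0.08 (limma adjusted p = 2.78e-09) in U266. On the log2(FPKM + 1) scale this was the largest fall of the 46 genes in any model. Ratios of plain FPKM order the genes otherwise, because that scale understates changes of low genes. In U266 SPC25 had 0.617 and 0.765 FPKM with I3MO, against 4.67 and 4.42 FPKM with DMSO, a larger ratio than that of MYBL2. The log2 difference of MYBL2 was -1.08 ± 0.08 (limma adjusted p = 8.33e-06) in ANBL6BR and -1.08 ± 0.08 (limma adjusted p = 2.65e-06) in ARP1. In ANBL6 the difference was -0.23 ± 0.08 (limma adjusted p = 0.107) and in RPMI8226 -0.25 ± 0.08 (limma adjusted p = 0.0646), neither past the threshold. FOXM1, the forkhead activator of G2/M genes, had 0.668 and 0.628 FPKM with I3MO, against 2.27 and 2.15 FPKM with DMSO in U266. It had 5.83 and 6.31 FPKM with I3MO, against 10.4 and 8.62 FPKM with DMSO in ANBL6BR, and 8.7 and 8.76 FPKM with I3MO, against 14.7 and 12 FPKM with DMSO in ARP1. In ANBL6 FOXM1 had 6.54 and 5.46 FPKM with I3MO, against 6.75 and 7.93 FPKM with DMSO, and in RPMI8226 5.94 and 6.7 FPKM with I3MO, against 7.08 and 7.5 FPKM with DMSO. FOXM1 fell in U266 (-0.96 ± 0.12, limma adjusted p = 6.27e-05), in ANBL6BR (-0.57 ± 0.12, limma adjusted p = 0.00489) and in ARP1 (-0.55 ± 0.12, limma adjusted p = 0.0027). The differences in ANBL6 (-0.25 ± 0.12, limma adjusted p = 0.217) and RPMI8226 (-0.18 ± 0.12, limma adjusted p = 0.385) did not pass.

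**Figure D2:**
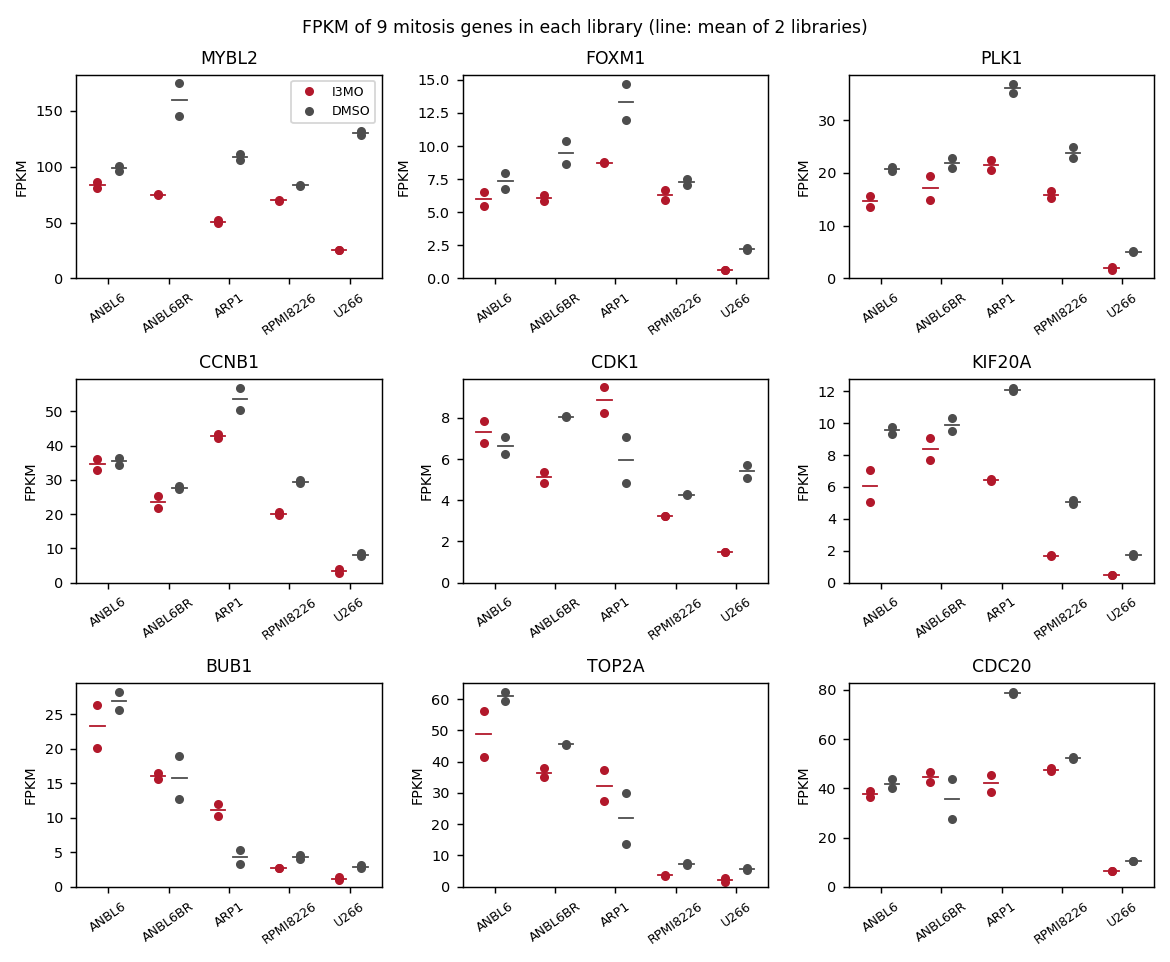
FPKM of 9 mitosis genes in each library (y axis, linear from 0) by cell model (x axis), with I3MO libraries in red left of DMSO libraries in grey and a line at the mean of the 2 libraries. MYBL2, FOXM1, PLK1 and KIF20A lie lower with I3MO in all 5 models, whereas BUB1 and CDK1 lie higher with I3MO in ARP1.

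Of the 6 genes of the cyclin B-CDK1 engine, 6 fell in U266, 5 in RPMI8226, 3 in ARP1, 2 in ANBL6BR and 0 in ANBL6, and CDK1 alone rose, in ARP1. CCNB1, the main mitotic cyclin, had 2.93 and 3.94 FPKM with I3MO, against 8.59 and 7.78 FPKM with DMSO in U266. In RPMI8226 CCNB1 had 20.6 and 19.6 FPKM with I3MO, against 29 and 29.9 FPKM with DMSO, and in ARP1 42.2 and 43.3 FPKM with I3MO, against 50.5 and 56.8 FPKM with DMSO. In ANBL6BR it had 25.2 and 21.8 FPKM with I3MO, against 28.2 and 27.2 FPKM with DMSO, and in ANBL6 36.2 and 32.8 FPKM with I3MO, against 36.5 and 34.4 FPKM with DMSO. Only in ANBL6 did the CCNB1 libraries of I3MO and DMSO overlap. CCNB1 fell in U266 (-1.06 ± 0.11, limma adjusted p = 1.61e-05), RPMI8226 (-0.53 ± 0.11, limma adjusted p = 0.00537) and ARP1 (-0.32 ± 0.11, limma adjusted p = 0.0348). CCNB2, the second B-type cyclin, had 13.8 and 14.4 FPKM with I3MO, against 26.1 and 27.8 FPKM with DMSO in RPMI8226. In U266 CCNB2 had 2.01 and 2.9 FPKM with I3MO, against 4.91 and 5.15 FPKM with DMSO, and in ARP1 11.3 and 11.7 FPKM with I3MO, against 16.9 and 17.2 FPKM with DMSO. In ANBL6BR it had 15.6 and 17.4 FPKM with I3MO, against 19.8 and 17.3 FPKM with DMSO, and in ANBL6 24 and 21.7 FPKM with I3MO, against 26.9 and 26.3 FPKM with DMSO. The CCNB2 ranges overlapped in ANBL6BR and lay apart in the other 4 models. CCNB2 fell in RPMI8226 (-0.89 ± 0.11, limma adjusted p = 0.000171), where it had the smallest p of the engine, in U266 (-0.82 ± 0.11, limma adjusted p = 0.00014) and in ARP1 (-0.52 ± 0.11, limma adjusted p = 0.00257).

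CDK1, the kinase itself, had 1.47 and 1.48 FPKM with I3MO, against 5.09 and 5.73 FPKM with DMSO in U266, and in ANBL6BR 4.83 and 5.38 FPKM with I3MO, against 8.05 and 8.08 FPKM with DMSO. In RPMI8226 CDK1 had 3.25 and 3.23 FPKM with I3MO, against 4.26 and 4.29 FPKM with DMSO, and in ANBL6 7.87 and 6.8 FPKM with I3MO, against 7.05 and 6.23 FPKM with DMSO. In ARP1 it had 9.5 and 8.26 FPKM with I3MO, against 4.86 and 7.05 FPKM with DMSO, so that there both I3MO libraries lay above both DMSO libraries. CDK1 fell in U266 (-1.37 ± 0.13, limma adjusted p = 7.77e-06) and ANBL6BR (-0.57 ± 0.13, limma adjusted p = 0.00794). CDK1 rose in ARP1 (0.52 ± 0.13, limma adjusted p = 0.00668), a call that ended with the GC trend removed, where the difference was -0.05 with a limma adjusted p of 0.761. CDC25B, a phosphatase that activates CDK1, had 5.77 and 6.08 FPKM with I3MO, against 12 and 10.6 FPKM with DMSO in ARP1. In U266 it had 2.93 and 2.36 FPKM with I3MO, against 4.6 and 4.48 FPKM with DMSO, and in RPMI8226 6.49 and 6.94 FPKM with I3MO, against 8.79 and 9.84 FPKM with DMSO. Values in ANBL6 were 4.25 and 4.77 FPKM with I3MO, against 5.84 and 5.71 FPKM with DMSO, and in ANBL6BR 17.5 and 15.4 FPKM with I3MO, against 21.1 and 15.4 FPKM with DMSO. The CDC25B ranges met only in ANBL6BR, whose DMSO libraries were also the highest of the 5 models. CDC25B fell in ARP1 (-0.82 ± 0.13, limma adjusted p = 0.000399), U266 (-0.61 ± 0.13, limma adjusted p = 0.00365) and RPMI8226 (-0.42 ± 0.13, limma adjusted p = 0.0461). CCNA2, cyclin A of S and G2 phase, fell in U266 (-1.96 ± 0.11, limma adjusted p = 1.61e-07), ANBL6BR (-0.92 ± 0.11, limma adjusted p = 2e-04) and RPMI8226 (-0.67 ± 0.11, limma adjusted p = 0.00164). CDC25C, the sister phosphatase, fell in RPMI8226 (-0.53 ± 0.1, limma adjusted p = 0.00377) and U266 (-0.47 ± 0.1, limma adjusted p = 0.0044). In ANBL6 the smallest p of the group was that of CDC25B, at -0.3 ± 0.13 (limma adjusted p = 0.181).

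The kinases of the spindle poles and centrosomes fell in 3 of 3 cases in U266 and in RPMI8226, and PLK1 and NEK2 fell in ANBL6 too. PLK1, which drives centrosome maturation and mitotic entry, had 2.2 and 1.63 FPKM with I3MO, against 4.97 and 5.12 FPKM with DMSO in U266. In ARP1 PLK1 had 20.6 and 22.5 FPKM with I3MO, against 36.9 and 35.2 FPKM with DMSO, and in RPMI8226 15.2 and 16.5 FPKM with I3MO, against 22.8 and 24.9 FPKM with DMSO. For ANBL6 the values were 15.7 and 13.5 FPKM with I3MO, against 20.4 and 21.1 FPKM with DMSO, and in ANBL6BR 19.5 and 14.8 FPKM with I3MO, against 22.8 and 20.9 FPKM with DMSO. Every I3MO library of PLK1 lay below every DMSO library of its model. PLK1 fell in U266 (-1.06 ± 0.12, limma adjusted p = 5.37e-05), ARP1 (-0.72 ± 0.12, limma adjusted p = 0.000815), RPMI8226 (-0.56 ± 0.12, limma adjusted p = 0.00939) and ANBL6 (-0.48 ± 0.12, limma adjusted p = 0.0345). In ANBL6BR its difference was -0.35 ± 0.12 (limma adjusted p = 0.0766). AURKA, the spindle pole kinase Aurora A, had 1.18 and 1.39 FPKM with I3MO, against 2.01 and 1.74 FPKM with DMSO in U266, and 2 and 1.88 FPKM with I3MO, against 2.7 and 2.61 FPKM with DMSO in RPMI8226. In ARP1 AURKA had 5.95 and 6.01 FPKM with I3MO, against 6.71 and 7.09 FPKM with DMSO, in ANBL6 2.97 and 2.58 FPKM with I3MO, against 3.19 and 2.83 FPKM with DMSO and in ANBL6BR 3.02 and 2.63 FPKM with I3MO, against 3.14 and 2.7 FPKM with DMSO. AURKA was lower without overlap in U266, RPMI8226 and ARP1 and fell by the test in U266 (-0.33 ± 0.09, limma adjusted p = 0.0141) and RPMI8226 (-0.32 ± 0.09, limma adjusted p = 0.0295). NEK2, a kinase of centrosome separation, fell in RPMI8226 (-0.89 ± 0.14, limma adjusted p = 0.000928), U266 (-0.79 ± 0.14, limma adjusted p = 0.00102), ANBL6 (-0.49 ± 0.14, limma adjusted p = 0.0492) and ANBL6BR (-0.45 ± 0.14, limma adjusted p = 0.0393). In ARP1 NEK2 rose (0.42 ± 0.14, limma adjusted p = 0.0288), a call that ended with median-ratio scaling (0.18, limma adjusted p = 0.271) and with the GC trend removed.

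The chromosomal passenger complex, which corrects faulty attachments and later marks the cleavage site, had 4 of 4 genes lower in U266, 3 in ARP1, 2 in RPMI8226, 1 in ANBL6 and 0 in ANBL6BR. AURKB, its kinase Aurora B, had 1.25 and 1.2 FPKM with I3MO, against 2.38 and 2.24 FPKM with DMSO in U266, and 6.87 and 7.73 FPKM with I3MO, against 11.8 and 11.3 FPKM with DMSO in ARP1. In RPMI8226 AURKB had 4.76 and 5.08 FPKM with I3MO, against 7.32 and 7.36 FPKM with DMSO, and in ANBL6BR 5.42 and 6.42 FPKM with I3MO, against 7.79 and 6.74 FPKM with DMSO. In ANBL6 it had 7.42 and 8.98 FPKM with I3MO, against 7.28 and 6.76 FPKM with DMSO, the one model in which both I3MO libraries of AURKB lay above the DMSO libraries. AURKB fell in ARP1 (-0.6 ± 0.1, limma adjusted p = 0.000593), U266 (-0.57 ± 0.1, limma adjusted p = 0.000939) and RPMI8226 (-0.49 ± 0.1, limma adjusted p = 0.00495), and the ANBL6 difference was 0.19 ± 0.1 (limma adjusted p = 0.279). INCENP, the scaffold of the complex, had 3.22 and 3.41 FPKM with I3MO, against 6.25 and 6.49 FPKM with DMSO in U266. In ARP1 INCENP had 12.2 and 10.9 FPKM with I3MO, against 16.7 and 16.6 FPKM with DMSO, and in RPMI8226 12.8 and 14.8 FPKM with I3MO, against 18.5 and 18.1 FPKM with DMSO. The ANBL6 values were 9.67 and 7.44 FPKM with I3MO, against 13.8 and 12.9 FPKM with DMSO, and in ANBL6BR 19.2 and 17.2 FPKM with I3MO, against 21.4 and 23.6 FPKM with DMSO. No ranges of INCENP overlapped. In ANBL6BR its difference of -0.29 ± 0.11 (limma adjusted p = 0.0872) did not pass. INCENP fell in U266 (-0.77 ± 0.11, limma adjusted p = 0.000222), ANBL6 (-0.6 ± 0.11, limma adjusted p = 0.00666), ARP1 (-0.49 ± 0.11, limma adjusted p = 0.00377) and RPMI8226 (-0.39 ± 0.11, limma adjusted p = 0.032).

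BIRC5, which encodes survivin, the subunit that brings the complex to centromeres, had 3.11 and 3.31 FPKM with I3MO, against 9.97 and 9.48 FPKM with DMSO in U266, and 21 and 19.8 FPKM with I3MO, against 21.7 and 21.9 FPKM with DMSO in RPMI8226. In ARP1 it had 15.2 and 17.3 FPKM with I3MO, against 20.2 and 18.9 FPKM with DMSO, in ANBL6BR 10.4 and 10.9 FPKM with I3MO, against 15 and 9.92 FPKM with DMSO and in ANBL6 14.3 and 16.7 FPKM with I3MO, against 16.7 and 15.7 FPKM with DMSO. The U266 libraries stood far apart, the RPMI8226 and ARP1 libraries lay apart by little, and those of ANBL6BR and ANBL6 overlapped. BIRC5 fell in U266 (-1.35 ± 0.14, limma adjusted p = 1.77e-05) and in no other model. CDCA8, which encodes borealin, fell in U266 (-1.22 ± 0.1, limma adjusted p = 4.25e-06) and ARP1 (-0.65 ± 0.1, limma adjusted p = 0.00047), where it had the smallest p of the complex.

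The spindle checkpoint genes, which hold back anaphase until chromosomes are attached, went opposite ways in ARP1 and U266. In U266, 4 of 5 fell, where 15.8% of all tested genes fell. In ARP1, 4 of 5 rose and 0 fell, where 23.1% of all tested genes rose and 13.9% fell. In RPMI8226 and ANBL6 0 of 5 were called, and in ANBL6BR TTK, the kinase MPS1 at the top of the checkpoint, fell (-0.51 ± 0.13, limma adjusted p = 0.0187). In log2(FPKM + 1) the largest rise was that of BUB1, a checkpoint kinase of the kinetochore chosen for its values. In ARP1 BUB1 had 12 and 10.2 FPKM with I3MO, against 3.23 and 5.36 FPKM with DMSO. In U266 BUB1 had 1.43 and 0.963 FPKM with I3MO, against 2.65 and 3.14 FPKM with DMSO, and in RPMI8226 2.74 and 2.75 FPKM with I3MO, against 4.54 and 4.05 FPKM with DMSO. Values in ANBL6 were 26.4 and 20.1 FPKM with I3MO, against 28.2 and 25.7 FPKM with DMSO, and in ANBL6BR 16.5 and 15.6 FPKM with I3MO, against 18.9 and 12.7 FPKM with DMSO. BUB1 was thus higher without overlap in ARP1, lower without overlap in U266 and RPMI8226, and overlapping in ANBL6 and ANBL6BR. BUB1 rose in ARP1 (1.22 ± 0.21, limma adjusted p = 0.000666) and fell in U266 (-0.83 ± 0.21, limma adjusted p = 0.00973). BUB3, which carries BUB1 and BUB1B to kinetochores, had 8.58 and 10.2 FPKM with I3MO, against 13.8 and 13.4 FPKM with DMSO in U266, and 21.2 and 21.2 FPKM with I3MO, against 17 and 18.9 FPKM with DMSO in ARP1. In RPMI8226 BUB3 had 8.99 and 8.81 FPKM with I3MO, against 10.1 and 10.1 FPKM with DMSO, in ANBL6BR 18.2 and 18.4 FPKM with I3MO, against 20.4 and 20.1 FPKM with DMSO and in ANBL6 15.8 and 15.9 FPKM with I3MO, against 18.2 and 18.1 FPKM with DMSO. The BUB3 pairs lay close together within each group, with no overlap between I3MO and DMSO in any model. BUB3 fell in U266 (-0.49 ± 0.07, limma adjusted p = 0.000364), and its rise in ARP1 (0.23 ± 0.07, limma adjusted p = 0.0287) turned to -0.05 (limma adjusted p = 0.843) with median-ratio scaling. MAD2L1, the MAD2 inhibitor of CDC20, fell in U266 (-1.29 ± 0.14, limma adjusted p = 3.49e-05) and rose in ARP1 (0.78 ± 0.14, limma adjusted p = 0.00118). BUB1B, the checkpoint protein BUBR1, fell in U266 (-1.13 ± 0.18, limma adjusted p = 0.00059) and rose in ARP1 (0.57 ± 0.18, limma adjusted p = 0.0262), and it had the smallest p of the group in RPMI8226 (-0.47 ± 0.18, limma adjusted p = 0.118) and ANBL6 (-0.51 ± 0.18, limma adjusted p = 0.108). Of these rises in ARP1, that of BUB1 alone passed with the GC trend removed.

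At the kinetochore, the NDC80 complex that grips microtubules had NDC80, NUF2 and SPC25 among the 46 genes, and these 3 fell in U266. SPC25 fell there (-1.71 ± 0.12, limma adjusted p = 6.49e-07), in ANBL6BR (-0.77 ± 0.12, limma adjusted p = 0.000802) and in ARP1 (-0.6 ± 0.12, limma adjusted p = 0.00175). NDC80 fell in U266 (-1.43 ± 0.17, limma adjusted p = 5.16e-05), RPMI8226 (-0.71 ± 0.17, limma adjusted p = 0.0125) and ANBL6BR (-0.6 ± 0.17, limma adjusted p = 0.0262) and rose in ARP1 (0.8 ± 0.17, limma adjusted p = 0.00264). NUF2 fell in U266 (-0.63 ± 0.13, limma adjusted p = 0.00348) and ANBL6BR (-0.56 ± 0.13, limma adjusted p = 0.0103) and rose in ARP1 (0.5 ± 0.13, limma adjusted p = 0.0103). In ARP1 the genes of this one complex were thus called in both directions as deposited. With median-ratio scaling the ARP1 differences were 0.55 for NDC80 (limma adjusted p = 0.0112), 0.28 for NUF2 (0.0939) and -0.85 for SPC25 (0.000171). With the GC trend removed neither rise passed, at 0.32 for NDC80 (limma adjusted p = 0.0807) and -0.03 for NUF2 (0.868), and SPC25 stood at -1.09 (0.000135). CENPA, the histone H3 variant of centromeres, fell in U266 (-0.47 ± 0.13, limma adjusted p = 0.016). CENPE, a kinetochore motor, stood below 1 FPKM in all ARP1, RPMI8226 and U266 libraries and was called in 0 models, and CENPF, a large kinetochore protein, had the lowest difference of the 46 genes in ANBL6 (-0.71 ± 0.28, limma adjusted p = 0.141) without passing.

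Among the 7 kinesins, 6 fell in U266, 3 in RPMI8226, 2 in ANBL6 and 1 in ANBL6BR. In ARP1 4 rose and 2 fell, where 23.1% of all tested genes rose and 13.9% fell. KIF20A, which carries the passenger complex to the central spindle, had 1.7 and 1.67 FPKM with I3MO, against 5.21 and 4.93 FPKM with DMSO in RPMI8226. In U266 KIF20A had 0.454 and 0.465 FPKM with I3MO, against 1.69 and 1.79 FPKM with DMSO, and in ARP1 6.37 and 6.47 FPKM with I3MO, against 12.2 and 12 FPKM with DMSO. For ANBL6 the values were 7.08 and 5.04 FPKM with I3MO, against 9.35 and 9.78 FPKM with DMSO, and in ANBL6BR 9.04 and 7.72 FPKM with I3MO, against 10.3 and 9.53 FPKM with DMSO. All I3MO libraries of KIF20A lay below the DMSO libraries of their model. KIF20A fell in RPMI8226 (-1.18 ± 0.11, limma adjusted p = 2.31e-05), the largest fall there, in U266 (-0.91 ± 0.11, limma adjusted p = 6.37e-05), in ARP1 (-0.82 ± 0.11, limma adjusted p = 0.000143) and in ANBL6 (-0.6 ± 0.11, limma adjusted p = 0.00684). KIF4A, a chromosome-bound kinesin, fell in U266 (-1.13 ± 0.09, limma adjusted p = 2.98e-06), RPMI8226 (-0.4 ± 0.09, limma adjusted p = 0.0114), ANBL6 (-0.38 ± 0.09, limma adjusted p = 0.0274) and ANBL6BR (-0.34 ± 0.09, limma adjusted p = 0.021). KIF2C, a microtubule depolymerase, fell in U266 (-0.83 ± 0.1, limma adjusted p = 5.41e-05), ARP1 (-0.64 ± 0.1, limma adjusted p = 0.000363) and RPMI8226 (-0.49 ± 0.1, limma adjusted p = 0.0051). KIF11, which pushes spindle poles apart, fell in U266 (-1.39 ± 0.33, limma adjusted p = 0.00724) and rose in ARP1 (0.97 ± 0.33, limma adjusted p = 0.0346). KIF14, KIF18A and KIF23 were the other kinesins that rose in ARP1 (the first and the last work in cytokinesis, KIF18A in aligning chromosomes), at 0.86 ± 0.23 (limma adjusted p = 0.0101), 0.4 ± 0.14 (limma adjusted p = 0.0459) and 0.5 ± 0.13 (limma adjusted p = 0.0107), and KIF18A and KIF23 fell in U266. Of the kinesin rises in ARP1, that of KIF14 alone passed with median-ratio scaling (limma adjusted p = 0.0219). None of them passed with the GC trend removed.

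Spindle microtubule proteins fell in U266 in 4 of 6 cases, with PRC1, the bundler of the spindle midzone (-1.34 ± 0.09, limma adjusted p = 5.29e-07), NUSAP1 (-1.52 ± 0.14, limma adjusted p = 5.65e-06), TPX2, the activator of Aurora A (-0.8 ± 0.11, limma adjusted p = 0.000229), and HMMR (-0.56 ± 0.18, limma adjusted p = 0.039). NUSAP1 and PRC1 also fell in RPMI8226 and ANBL6BR, NUSAP1, a microtubule-bundling protein, at -0.82 ± 0.14 (limma adjusted p = 0.00138) and -0.76 ± 0.14 (limma adjusted p = 0.00227). In ARP1 HMMR and DLGAP5, which help form the spindle, rose (0.66 ± 0.18, limma adjusted p = 0.014 and 0.63 ± 0.2, limma adjusted p = 0.0262), and in ANBL6 0 of 6 were called, ASPM having the smallest p (-0.57 ± 0.21, limma adjusted p = 0.124). Of the cytokinesis genes, ANLN, an actin-binding ring protein, fell in ANBL6BR (-0.72 ± 0.21, limma adjusted p = 0.0328). Both ANLN (0.62 ± 0.21, limma adjusted p = 0.0364) and ECT2, the activator of RhoA at the cleavage site (0.5 ± 0.15, limma adjusted p = 0.0204), rose in ARP1. The ARP1 rises of HMMR, DLGAP5, ANLN and ECT2 did not pass with median-ratio scaling or with the GC trend removed. In U266 neither was called, ANLN having the smaller p (-0.42 ± 0.21, limma adjusted p = 0.178), and the same held for ECT2 in RPMI8226 (-0.27 ± 0.15, limma adjusted p = 0.295) and ANBL6 (-0.42 ± 0.15, limma adjusted p = 0.113). TOP2A, the topoisomerase that untangles sister chromosomes, had 2.68 and 1.4 FPKM with I3MO, against 5.32 and 6.04 FPKM with DMSO in U266. In RPMI8226 TOP2A had 3.85 and 3.43 FPKM with I3MO, against 7.69 and 6.83 FPKM with DMSO, and in ARP1 37.2 and 27.3 FPKM with I3MO, against 13.7 and 30 FPKM with DMSO. In ANBL6 it had 56.3 and 41.6 FPKM with I3MO, against 62.1 and 59.5 FPKM with DMSO, and in ANBL6BR 37.8 and 35.2 FPKM with I3MO, against 45.4 and 45.7 FPKM with DMSO. The ARP1 libraries of TOP2A overlapped and the DMSO pair was wide apart, whereas in the other 4 models I3MO was lower without overlap. TOP2A fell in U266 (-1.16 ± 0.29, limma adjusted p = 0.00987), and its differences in RPMI8226 (-0.83 ± 0.29, limma adjusted p = 0.0784), ANBL6 (-0.32 ± 0.29, limma adjusted p = 0.587), ANBL6BR (-0.31 ± 0.29, limma adjusted p = 0.581) and ARP1 (0.62 ± 0.29, limma adjusted p = 0.115) did not pass. The standard error of 0.29 is pooled over all groups, so the wide ARP1 DMSO pair also enters it for the other models.

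Anaphase control was the group with 4 of 4 genes lower in ARP1, against 3 in U266, 2 in RPMI8226, 1 in ANBL6 and 0 in ANBL6BR. Over all tested genes, 13.9% were lower in ARP1 and 15.8% in U266. CDC20, which activates the anaphase-promoting complex, had 38.4 and 45.6 FPKM with I3MO, against 78.5 and 79.2 FPKM with DMSO in ARP1, and 6.48 and 6.23 FPKM with I3MO, against 10.3 and 10.3 FPKM with DMSO in U266. In RPMI8226 CDC20 had 47.1 and 48.2 FPKM with I3MO, against 52.8 and 52 FPKM with DMSO, in ANBL6 38.9 and 36.3 FPKM with I3MO, against 40.2 and 43.7 FPKM with DMSO and in ANBL6BR 46.8 and 42.4 FPKM with I3MO, against 43.7 and 27.5 FPKM with DMSO. CDC20 was lower without overlap in all but ANBL6BR, whose DMSO libraries were far apart. CDC20 fell in ARP1 (-0.9 ± 0.15, limma adjusted p = 0.00075) and U266 (-0.62 ± 0.15, limma adjusted p = 0.00989). ESPL1, the separase that cuts cohesin, had 0.704 and 0.609 FPKM with I3MO, against 3.04 and 3.23 FPKM with DMSO in U266. In ARP1 ESPL1 had 3.75 and 3.6 FPKM with I3MO, against 6.47 and 6.1 FPKM with DMSO, and in RPMI8226 3.09 and 3.44 FPKM with I3MO, against 4.76 and 4.96 FPKM with DMSO. The ANBL6 values were 2.73 and 1.79 FPKM with I3MO, against 3.4 and 3.75 FPKM with DMSO, and in ANBL6BR 4.78 and 4.99 FPKM with I3MO, against 6.72 and 6.16 FPKM with DMSO. The ESPL1 libraries lay apart in all models. ESPL1 fell in U266 (-1.32 ± 0.11, limma adjusted p = 3.33e-06), ARP1 (-0.64 ± 0.11, limma adjusted p = 0.000735), ANBL6 (-0.5 ± 0.11, limma adjusted p = 0.0161) and RPMI8226 (-0.46 ± 0.11, limma adjusted p = 0.0139), and in ANBL6BR it was -0.34 ± 0.11 (limma adjusted p = 0.052).

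PTTG1 encodes securin, the inhibitor of separase, and is uncertain in so far as near-identical copies of the gene can take its reads. PTTG1 had 12.6 and 11.6 FPKM with I3MO, against 25.5 and 27.4 FPKM with DMSO in RPMI8226. In ARP1 PTTG1 had 13.7 and 16.1 FPKM with I3MO, against 25.9 and 25.9 FPKM with DMSO, and in U266 3.29 and 3.32 FPKM with I3MO, against 7.49 and 6.82 FPKM with DMSO. Values in ANBL6 were 14.4 and 15.1 FPKM with I3MO, against 17.9 and 16.4 FPKM with DMSO, and in ANBL6BR 15.7 and 14.9 FPKM with I3MO, against 19.7 and 15.5 FPKM with DMSO. Only the ANBL6BR libraries overlapped. PTTG1 fell in RPMI8226 (-1.07 ± 0.1, limma adjusted p = 3.21e-05), U266 (-0.92 ± 0.1, limma adjusted p = 4.01e-05) and ARP1 (-0.76 ± 0.1, limma adjusted p = 0.000173).

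UBE2C, the ubiquitin-conjugating enzyme that works with the anaphase-promoting complex, stood below 1 FPKM in 3 of the 5 models. UBE2C had 22.8 and 26.2 FPKM with I3MO, against 40.9 and 44.1 FPKM with DMSO in ARP1, and 13.5 and 13 FPKM with I3MO, against 20.7 and 13.1 FPKM with DMSO in ANBL6BR. In RPMI8226 it had 0.851 and 0.73 FPKM with I3MO, against 0.766 and 0.927 FPKM with DMSO, and in U266 0.273 and 0.268 FPKM with I3MO, against 0.239 and 0.343 FPKM with DMSO. For ANBL6 the values were 0.0778 and 0.121 FPKM with I3MO, against 0.0885 and 0.0884 FPKM with DMSO. By the gene length used above, these came to about 6 to 8 fragments a library. The ANBL6BR and ARP1 libraries thus stood far above those of the other 3 models whatever the treatment. The counting tool and annotation behind the values are not given in the sources used here, and their part in the low UBE2C values, and so in the ratio between models, was not tested. In ARP1 UBE2C fell (-0.77 ± 0.15, limma adjusted p = 0.00154). In DMSO the ANBL6BR minus ANBL6 difference of UBE2C was 4 ± 0.15 (limma adjusted p = 1.82e-10), the largest of the 46 genes in that comparison. Of the genes with a symbol, UBE2C was the 1 gene below 2 FPKM in all ANBL6, RPMI8226 and U266 libraries and above 10 FPKM in all ANBL6BR and ARP1 libraries, limits that were chosen after its values were seen. The 5 UBE2C pseudogenes of the table reached at most 2.76 FPKM in any library. Other genes of the same step, such as CDC20 and PTTG1 above, showed no such gap between ANBL6BR and ANBL6: with DMSO, CDC20 had 43.7 and 27.5 FPKM in ANBL6BR, against 40.2 and 43.7 FPKM in ANBL6, and PTTG1 had 19.7 and 15.5 FPKM in ANBL6BR, against 17.9 and 16.4 FPKM in ANBL6.

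**Figure D3:**
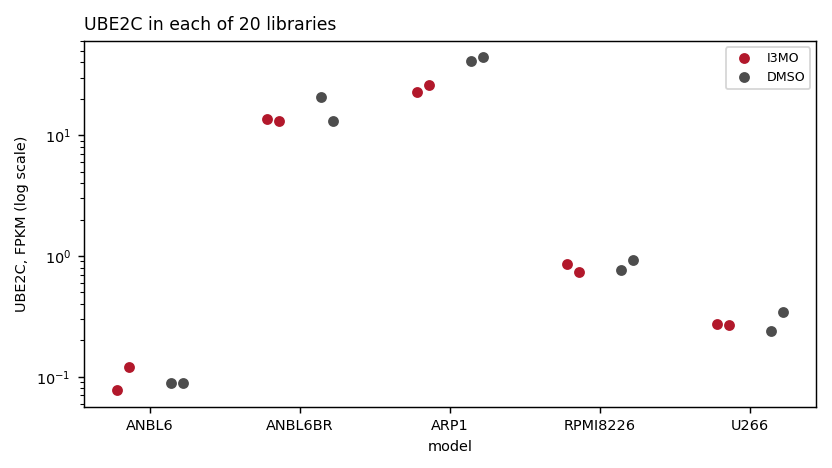
UBE2C in FPKM (y axis, log scale) in each of the 20 libraries by cell model (x axis), with I3MO libraries in red left of DMSO libraries in grey. The ANBL6BR and ARP1 libraries lie between 13.0 and 44.1 FPKM and those of the other 3 models at or below 0.927 FPKM.

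In ARP1 the direction of a mitosis gene went with the base composition of its transcript. The 16 genes that rose had 36.7% to 43.2% G and C bases in the longest transcript (median 39.1%), and the 16 that fell had 40% to 60.5% (median 53.5%). Across the 46 genes, which share the same libraries and are not independent replicates, the response in ARP1 correlated with GC content at r = -0.82. Over 15363 tested genes with a GC value it was r = -0.43. For the 46 genes the same correlation lay between -0.21 and 0.1 in the other 4 models. The ARP1 libraries also differed by GC content within a group. Replicate 2 minus replicate 1 of DMSO correlated with GC at r = -0.77 across the 46 genes and -0.2 over the tested genes. For I3MO in ARP1 these were 0.64 and 0.21. Across the 46 genes, r was also 0.52 in ANBL6 with I3MO, 0.46 in RPMI8226 with I3MO and -0.44 in ANBL6BR with DMSO. In the remaining groups it lay between -0.32 and 0.22. Between the 2 ARP1 DMSO libraries, the genes that rose with I3MO differed by a median of 0.52 on the log2 scale and those that fell by -0.04. With each library's GC trend removed, an alternative chosen after the data were seen, 1 mitosis gene rose and 17 fell in ARP1. That gene was BUB1, at 0.86 with a limma adjusted p of 0.00367. Without DMSO replicate 1, or without I3MO replicate 1, 3 genes rose, and 9 rose with no filter on low values. The falls were steadier, at 15 to 19 genes over the 10 alternatives tried, and MYBL2 stood at -1.37 with median-ratio scaling and at -1 with the GC trend removed. The part of base composition in the rises was not tested beyond these alternatives.

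**Figure D4:**
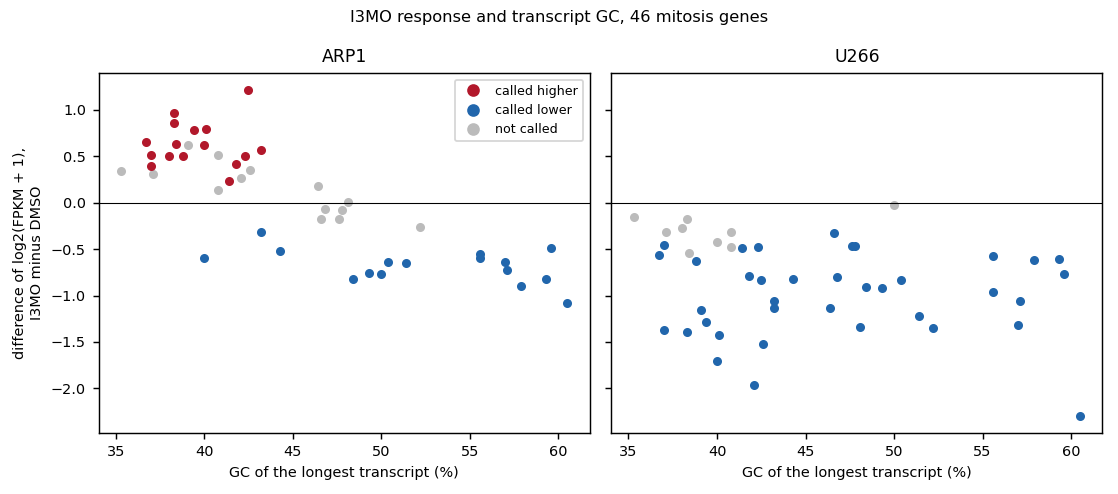
Difference of log2(FPKM + 1), I3MO minus DMSO (y axis), against the G and C share of the longest transcript in percent (x axis) for the 46 mitosis genes in ARP1 and U266, with red for called higher, blue for called lower and grey for not called. In ARP1 the 16 red points lie between 36.7% and 43.2%, and in U266 all points lie below 0 at every GC content.

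Tested as one response common to the models, with 5 I3MO means against 5 DMSO means and the spread between models as the error, 0 of 46 mitosis genes were called by limma, where 0% of all tested genes were. All 46 mean differences were below 0, with a median of -0.35 against 0.01 over all tested genes, and 20 were lower at an unadjusted p under 0.05, where 16.9% of all tested genes were past that p in either direction. The smallest p were those of KIF20A (-0.74 ± 0.15, limma adjusted p = 0.111), PLK1 (-0.63 ± 0.12, limma adjusted p = 0.111) and INCENP (-0.51 ± 0.1, limma adjusted p = 0.115). ESPL1 (-0.65 ± 0.15, limma adjusted p = 0.138), PTTG1 (-0.63 ± 0.16, limma adjusted p = 0.145), FOXM1 (-0.5 ± 0.13, limma adjusted p = 0.149), CCNB2 (-0.52 ± 0.14, limma adjusted p = 0.153) and CDC25B (-0.45 ± 0.12, limma adjusted p = 0.155) followed. MYBL2 had the largest mean difference, at -0.99 ± 0.29 (limma adjusted p = 0.176), and did not pass either. In the other role groups the smallest p were those of SPC25 (-0.73 ± 0.21, limma adjusted p = 0.17), TPX2 (-0.32 ± 0.13, limma adjusted p = 0.268), TOP2A (-0.4 ± 0.24, limma adjusted p = 0.429), TTK (-0.25 ± 0.11, limma adjusted p = 0.322) and ECT2 (-0.16 ± 0.15, limma adjusted p = 0.589). Adjusted p over the 46 genes ran from 0.111 to 0.96. With the model and replicate number as a block, 16 mitosis genes fell, where 14.1% of all tested genes were called. The error of that fit mixes the spread between libraries with differences of response between models. It counts both libraries of a model as separate units. It also pairs I3MO with DMSO libraries by numbers that, as given below, are not known to mark pairs. The 16 calls are therefore no test of a response common to the models.

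The responses differed between models for most mitosis genes. In ARP1, RPMI8226 and U266, all given 10 µM, the limma test of equal responses was past the threshold for 31 of 46 genes, where 38.9% of all tested genes were past it. MYBL2 (adjusted p = 1.09e-06) and CCNA2 (6.81e-06) had the smallest p, and for both the difference in U266 was the furthest below 0. PRC1 (4.21e-05), CDK1 (5.2e-05), MAD2L1 (6.75e-05), KIF4A (7.5e-05), NUSAP1 (8.13e-05) and NDC80 (9.68e-05) came next. The smallest p of the remaining role groups were those of NEK2 (0.000538), BIRC5 (0.000898), ESPL1 (0.00268), TOP2A (0.00993) and ECT2 (0.017). For 15 genes the test did not pass. AURKB (limma adjusted p = 0.826), AURKA (0.53), PTTG1 (0.251) and CDC25B (0.206) had the largest of these p, which does not show that their responses were equal. Over all 5 models, which differ in dose, 39 of 46 genes were past the threshold, where 44.5% of all tested genes were.

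ANBL6BR and ANBL6 were compared because resistance to bortezomib is the labelled difference between them. With DMSO, 13 of 46 mitosis genes were higher and 8 lower in ANBL6BR than in ANBL6, where 51.8% of all tested genes were called (27% higher, 24.8% lower), and the median difference was 0.12. With median-ratio scaling 11 were higher and 9 lower, and the median was 0.03. Besides UBE2C, CDC25B (1.49 ± 0.13, limma adjusted p = 6.18e-07) and CENPA (1.32 ± 0.13, limma adjusted p = 1.95e-06) were the most raised. TPX2 (0.8 ± 0.11), INCENP (0.71 ± 0.11), ESPL1 (0.7 ± 0.11) and MYBL2 (0.69 ± 0.08) were also higher in ANBL6BR. Lower in ANBL6BR were ECT2 (-1.14 ± 0.15, limma adjusted p = 3e-05), NEK2 (-0.92 ± 0.14), HMMR (-0.81 ± 0.18), BUB1 (-0.76 ± 0.21), CCNB2 (-0.5 ± 0.11), PRC1 (-0.45 ± 0.09), BIRC5 (-0.38 ± 0.14) and CCNB1 (-0.35 ± 0.11).

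The I3MO response of ANBL6BR was further below that of ANBL6 for 3 of 46 mitosis genes and above it for 0, where 8.47% of all tested genes were called (4.14% higher, 4.33% lower). At an unadjusted p under 0.05, 8 were lower and 2 higher, and the median of the 46 differences was 0.01. The difference of the responses was -0.85 ± 0.12 for MYBL2 (limma adjusted p = 0.00151), -0.71 ± 0.16 for CCNA2 (0.0186) and -0.7 ± 0.18 for CDK1 (0.0343). With a replicate block 1 gene was called lower, and without single libraries 1 to 4. SPC25 (-0.54 ± 0.17, limma adjusted p = 0.0641) and AURKB (-0.45 ± 0.14, limma adjusted p = 0.0692) did not pass. The ANBL6 response of the 46 genes correlated with the log of transcript length at r = -0.57 across genes (-0.21 over the tested genes), as did the difference of its I3MO libraries (replicate 2 minus 1) at r = -0.6. For ANBL6BR the response correlated with it at r = 0.08. The difference of the ANBL6BR DMSO libraries (replicate 2 minus 1) did so at r = 0.59 (-0.09 over the tested genes). CENPF had 8.07 and 5.58 FPKM in ANBL6 with I3MO, against 10.9 and 12.5 FPKM with DMSO, and ASPM, a spindle pole protein, had 4.51 and 2.22 FPKM with I3MO, against 5.4 and 5.09 FPKM with DMSO. I3MO replicate 2 was the lowest ANBL6 library for both. Without that library, or without either DMSO library, 1 mitosis gene was called lower in ANBL6, and without I3MO replicate 1 there were 7. The part of transcript length in the ANBL6 and ANBL6BR values was not tested.

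Genes of the same processes outside the 46 were counted beside them. Of 111 other mitosis genes tested (of 113 listed), 67 fell and 5 rose in U266 with a median of -0.49, and in ANBL6BR 45 fell and 0 rose with a median of -0.31. In RPMI8226 18 fell and 4 rose, in ANBL6 9 fell and 4 rose, and in ARP1 35 fell and 36 rose. Over all tested genes the shares lower and higher were 15.8% and 10.5% in U266, 8.4% and 10% in ANBL6BR, 8.62% and 6.19% in RPMI8226, 3.87% and 4.1% in ANBL6 and 13.9% and 23.1% in ARP1, against which all list counts here are to be read. In ARP1, 46 of the 111 fell and 19 rose with median-ratio scaling, and 40 fell and 13 rose with the GC trend removed, both run on this list after the data were seen. The genes named below are mostly falls in U266. Rises elsewhere, as deposited, included CKS2 in ANBL6 (1.04 ± 0.16), and ARPP19 (1.41 ± 0.18) and MIS12 (1.23 ± 0.16) in ARP1. Condensin and cohesin, the chromosome-shaping rings, had 9 of 19 genes lower in U266, among them CDCA5 (-1.59 ± 0.11) and NCAPH (-1.3 ± 0.13), and 7 higher and 6 lower in ARP1, with NCAPD2 at -1.04 ± 0.11. Other kinetochore and centromere genes had 21 of 27 lower in U266, SPC24 at -2.07 ± 0.12, ZWINT at -1.69 ± 0.11 and HJURP at -1.29 ± 0.11, and 15 lower in ANBL6BR. SPC24, the fourth gene of the NDC80 complex and the partner of SPC25, fell in ARP1 as well (-0.91 ± 0.12). Other mitotic kinases and phosphatase regulators had 11 of 14 lower in U266, PKMYT1, which inhibits CDK1, at -1.46 ± 0.1 and CDC25A at -1.54 ± 0.11, and 8 lower in ANBL6BR. Other spindle and cytokinesis genes had 19 of 28 lower in U266, TACC3 at -1.24 ± 0.08 and KIFC1 at -1.64 ± 0.11. Of the other checkpoint genes, 1 of 7 fell in U266, TRIP13 at -1.46 ± 0.14, and 1 rose. The subunits and regulators of the anaphase-promoting complex were mixed, with 6 of 16 lower and 4 higher in U266, FBXO5, its inhibitor, at -0.73 ± 0.15 and FZR1 at 0.52 ± 0.12. Genes of MuvB, DREAM and NF-Y had 6 of 14 lower in U266, MYBL1 at -0.71 ± 0.14 and TFDP1 at -0.63 ± 0.13, and 6 higher and 3 lower in ARP1.

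The genes of the G1/S step and DNA replication, which act earlier in the cycle, numbered 32 and had medians further below 0 than the mitosis genes in U266, ANBL6BR and ARP1. In U266 the median of the mitosis genes was -0.81, against -1.29 for the replication genes, of which 32 fell. In ANBL6BR it was -0.29 for the mitosis genes, against -0.98 for the replication genes, of which 28 fell. In ARP1 it was 0.16 for the mitosis genes (-0.07 with median-ratio scaling), against -0.54 for the replication genes, of which 18 fell and 4 rose (23 fell and 0 rose with median-ratio scaling). The mitosis genes had the lower median in RPMI8226, at -0.41 against -0.25 for the replication genes (8 fell, 1 rose), and in ANBL6, at -0.23 against -0.14 (2 fell, 2 rose). MCM5, a subunit of the replicative helicase, was lower by -1.8 ± 0.07 in U266, -1.73 ± 0.07 in ANBL6BR, -1.47 ± 0.07 in ARP1, -0.66 ± 0.07 in RPMI8226 and -0.58 ± 0.07 in ANBL6, past the threshold in each. CCNE1, cyclin E, rose in RPMI8226 (0.68 ± 0.1) and ANBL6 (0.63 ± 0.1). The response in ANBL6BR was called below that in ANBL6 for 3 of 46 mitosis genes, with a median difference of 0.01 over the 46, and for 20 of 32 replication genes, with a median difference of -0.87 over the 32. The medians are descriptions of the lists, and the difference between the lists was not tested.

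**Figure D5:**
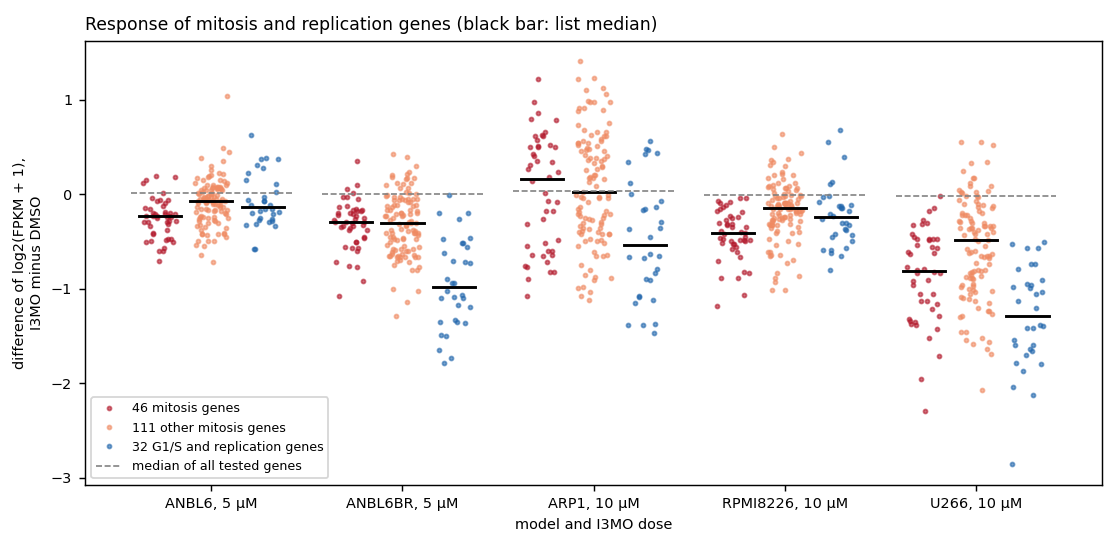
Difference of log2(FPKM + 1), I3MO minus DMSO (y axis), of single genes (points) in the 46 mitosis genes, 111 other mitosis genes and 32 G1/S and replication genes by cell model and dose (x axis), with a black bar at each list's median and a dashed line at the median of all tested genes. In ANBL6BR the mitosis genes have a median of -0.29 beside -0.98 for the replication genes, and in RPMI8226 -0.41 beside -0.25.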

How the data were processed

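Total RNA of 5 myeloma cell models was sequenced. The deposited values are FPKM per gene in 1 joint table, the authors' fragments per kilobase and M (mega) fragments; reads were trimmed with Trimmomatic 0.32 and 0.36 and processed with STAR and SAMtools on hg38, per the submitters' processing notes. The counting tool and annotation are not given in the sources used here. Steps between low FPKM values gave 12.09 to 20.28 M fragments per library, with 94.7% to 100% of low values whole within 0.02.

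FPKM were taken as log2(FPKM + 1), which understates changes of low genes. Genes at 1 FPKM or more in at least 2 libraries (15687) were tested with limma 3.58.1 (R 4.3.3, Python 3.11.15) on 10 group means with a mean-variance trend, p-values adjusted by Benjamini-Hochberg over all tested genes. The test across models used 10 group means with the model as a block. The fit was first tested on simulated data.

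Alternatives were a pseudocount of 0.1, no filter, median-ratio scaling (12526 genes), a replicate block and leaving out each library. Removing a GC trend per library (loess, 15363 genes) and crossing the ARP1 numbers were chosen after seeing the data. Members and lists were chosen with earlier results of these data known. Library values are given for 11 preset genes and the 6 others with the smallest p across models. In the comparisons of I3MO with DMSO the gene with the smallest p of each role group is named. Of each other list up to 3 genes are named, mostly for U266 and not in every comparison.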

Additional observations from a re-analysis of the deposited data

Results flagged for a closer look

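These results are listed because the I3MO response differed between cell models by a test of the difference itself (limma, adjusted over all tested genes). In ANBL6BR the response minus that in ANBL6 was -0.85 for MYBL2, -0.71 for CCNA2 and -0.7 for CDK1 on the log2 scale, with the same dose in both models. These are 3 of 46 mitosis genes, where 8.47% of all tested genes were called, and with the replicate block 1 mitosis gene was called lower. Among ARP1, RPMI8226 and U266, where 38.9% of all tested genes were called, the gene with the smallest p of each role group was MYBL2 (adjusted p = 1.09e-06), CCNA2 (6.81e-06), PRC1 (4.21e-05), MAD2L1 (6.75e-05), KIF4A (7.5e-05), NDC80 (9.68e-05), NEK2 (0.000538), BIRC5 (0.000898), ESPL1 (0.00268), TOP2A (0.00993) and ECT2 (0.017). MAD2L1, NDC80, NEK2 and ECT2 were called higher in ARP1, where the direction went with transcript GC content. With 2 libraries in a group, no library could be tested for standing apart from the others of its group.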

How the results depend on the processing

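The falls in U266, RPMI8226 and ARP1 kept a count within 1.5 times under the pseudocount, filter, scaling, block and GC alternatives. The rises in ARP1 (16 genes) became 9 with no filter, 4 with median-ratio scaling and 1 with the GC trend removed. There, BUB3 turned to -0.05 with scaling, and with the GC trend removed BUB3 turned to -0.19, ECT2 to -0.05, KIF18A to -0.17, NUF2 to -0.03 and CDK1 to -0.05. In ANBL6, 11 genes fell with the GC trend removed, against 6. Across genes, same-numbered I3MO and DMSO libraries did not deviate together (correlations of -0.01, 0.03, -0.11, -0.03 and -0.04). With 2 libraries in a group, this cannot show whether the numbers mark a shared culture or batch. With the replicate block, 2 genes fell in ANBL6 and 8 in ANBL6BR, 7 rose in ARP1, 16 fell across models, 1 response was lower in ANBL6BR than in ANBL6, and 25 responses differed among 5 models, against 39. With the ARP1 numbers crossed, 15 rose and 15 fell. Leaving out 1 library gave 1 to 7 falls in ANBL6, 0 to 1 rises and 6 to 14 falls in ANBL6BR, 3 to 21 rises and 15 to 16 falls in ARP1, 10 to 15 falls in RPMI8226 and 29 to 33 in U266. Counts moved by over 1.5 times without ANBL6 I3MO replicate 2 or either ANBL6 DMSO library (1 fall each), ANBL6BR I3MO replicate 2 (6 falls) or 1 (7), RPMI8226 I3MO replicate 1 (10) or DMSO replicate 1 (11), and ARP1 I3MO or DMSO replicate 1 (3 rises each). Leaving out 1 library also gave 9 to 13 genes higher and 5 to 9 lower in ANBL6BR than in ANBL6 with DMSO, 0 to 2 higher and 1 to 4 lower responses, 24 to 34 unequal responses in 3 models and 26 to 39 in 5. A lone library left in a group was assumed to vary like the others. Of 954 values of single genes in the 5 models under an alternative, 751 stayed on the same side of the threshold with the same direction, 197 lost the call and 6 turned. Beyond what fewer libraries cost, the cause was not tested. Scaling moved the share of called genes that were higher to 40.8% in ARP1, against 62.5% as deposited, and to 37.3% in ANBL6, against 51.4%. Limits are the 2 libraries per group, low values of genes such as CENPE and KIF14 in U266 and RPMI8226, and the unknown length of exposure.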
